A study of Mus musculus with 6 samples.

Results

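The genes described are 9 factors of nonsense-mediated decay (NMD) in αTC1 cells, a mouse glucagonoma line used as a model of the pancreatic α cell. They are Upf1, Upf2, Upf3a, Upf3b, Smg1, Smg5, Smg6, Smg8 and Smg9, taken by gene name from the 55487 genes of the deposited tables, and all 9 were among the 15082 genes with enough counts to be tested. Total RNA of 3 libraries treated with G786-1089 and 3 treated with the solvent DMSO was sequenced by Smart-seq2, in which cDNA synthesis starts at poly(A) tails and strand information is lost. The labels name G786-1089 as an inhibitor of SMNDC1, a splicing factor with a Tudor domain, and it was taken to be the inhibitor 1 of the study. Both groups come from the same line with no stated genetic change, and no dose, duration or batch is given in the labels. For cell experiments in general, the study states that 1 batch of cells was divided among the treatments of a replicate and that its samples were handled together. Whether the column letters A to C mark such replicates, or separate cultures, is not stated, so p-values measure only the spread between these samples, which may be technical.

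NMD removes mRNAs on which a ribosome stops too early, for instance because a retained intron has brought a stop codon into the reading frame. The helicase UPF1 binds the terminating ribosome and is joined by UPF2 and a UPF3 protein, which bridge it to the exon junction complex that splicing leaves downstream. The kinase SMG1, held in check by SMG8 and SMG9, then phosphorylates UPF1, and phosphorylated UPF1 recruits the endonuclease SMG6 and the adaptor SMG5, which passes the mRNA to deadenylation and decapping. The mRNAs of several of these factors are known to be NMD substrates themselves, so that their levels can follow the activity of the pathway.

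Library totals ran from 70150880 to 94747943 counts with G786-1089 and from 59070705 to 69480568 with DMSO, so that every treated library was deeper. The α cell hormone transcript Gcg stood at 2401 to 3024 FPKM (fragments scaled by exon length and sequencing depth) with G786-1089 and at 17086 to 19365 with DMSO, whereas the α cell marker Gc was listed at 0 in all 6 libraries. Of 14 α cell and endocrine markers, 10 exceeded 1 FPKM in every library. Of 23 markers of other cell types, 19 stayed below 1 FPKM in every library. The acinar list (3 markers) summed to 13.6 to 21.8 FPKM with G786-1089 against 4.46 to 10.6 with DMSO and was carried by Cela1. The leukocyte list (3 markers) summed to 5.85 to 13.9 against 4.28 to 6.25 and was carried by Cd68. In both lists the other markers were below 1 FPKM in every library. Their part in the results on NMD factors was not tested.

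The RefSeq promoter table held all 9 genes. The 250 bases before the annotated start are shown for the genes that passed the test, Smg9 and Upf2, and for Upf3a, the gene with a negative fold change (all on the plus strand of GRCm38.p6, 5′ to 3′). The windows are chr7:24399378-24399627 for Smg9, chr2:5951219-5951468 for Upf2 and chr8:13785365-13785614 for Upf3a. Capitals mark matches on either strand to the GC box GGGCGG, the CCAAT box CCAAT and the sequence ACGTG, which is the core bound by hypoxia-inducible factors and is also found in other E-box-like elements.

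Smg9: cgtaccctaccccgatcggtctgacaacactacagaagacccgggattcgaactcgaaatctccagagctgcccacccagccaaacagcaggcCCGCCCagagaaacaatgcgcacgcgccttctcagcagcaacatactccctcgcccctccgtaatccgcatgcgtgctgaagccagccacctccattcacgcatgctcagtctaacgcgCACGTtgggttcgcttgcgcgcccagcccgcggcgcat
Upf2: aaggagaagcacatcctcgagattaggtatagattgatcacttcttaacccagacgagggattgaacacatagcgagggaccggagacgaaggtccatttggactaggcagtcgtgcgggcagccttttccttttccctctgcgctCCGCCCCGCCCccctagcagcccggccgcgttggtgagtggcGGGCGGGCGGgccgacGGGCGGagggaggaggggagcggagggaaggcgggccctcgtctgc
Upf3a: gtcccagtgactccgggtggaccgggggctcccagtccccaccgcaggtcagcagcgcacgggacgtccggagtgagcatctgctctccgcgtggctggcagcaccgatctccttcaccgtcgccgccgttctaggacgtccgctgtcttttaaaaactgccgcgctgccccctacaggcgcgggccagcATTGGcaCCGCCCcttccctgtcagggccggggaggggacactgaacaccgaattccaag

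The Upf2 window held 5 GC boxes, some of them overlapping, and no match to the other motifs. The Smg9 window held 1 GC box and 1 ACGTG match, and the Upf3a window 1 CCAAT box and 1 GC box. Over the 9 genes, 7 had a GC box, 4 a CCAAT box and 3 an ACGTG match (Smg5, Smg6 and Smg9). The same motifs were found in 32.7%, 33.8% and 16.6% of the 32851 windows of all genes. GC content was 50.8% to 72.8% in the 9 windows, against a median of 52.4% over all windows. A match describes these letters only, and binding was not measured here.

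With G786-1089, Smg9 and Upf2 rose and no NMD factor fell, although the call of Upf2 was lost when the column letters were fitted as a replicate block (edgeR adjusted p = 0.0635) and that of Smg9 was not (edgeR adjusted p = 0.0390). Of the 9 genes, 8 had a positive log2 fold change and Upf3a a negative one, with a median of 0.54 against 0.04 over all tested genes. Calls were made by edgeR's quasi-likelihood test at an adjusted p under 0.05, with p-values corrected by Benjamini-Hochberg over the 15082 genes. Of these, 6.98% were called higher and 7.80% lower, so that 2 of 9 and 0 of 9 are to be read against these shares. An unadjusted p under 0.05 was reached by 3 of the 9, the third being Smg5, and by 28.1% of all tested genes. The study filtered genes in its splicing analysis by an adjusted p no higher than 0.1 and a change of 1 or more in either direction on the log2 scale. It took both from its expression test with DESeq2. Applied here to edgeR values, the study's filter was passed by the same 2 genes and by 10.4% of all tested genes. CPM values (counts scaled to library size, with TMM factors) did not overlap between the groups for Upf2, Smg5, Smg6 and Smg9, which were higher, and for Upf3a, which was lower; over all tested genes the shares were 18.2% and 18.5%. Since whole cultures were sequenced, fewer cells that express a gene and less RNA per cell cannot be told apart.

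**Figure D1:**
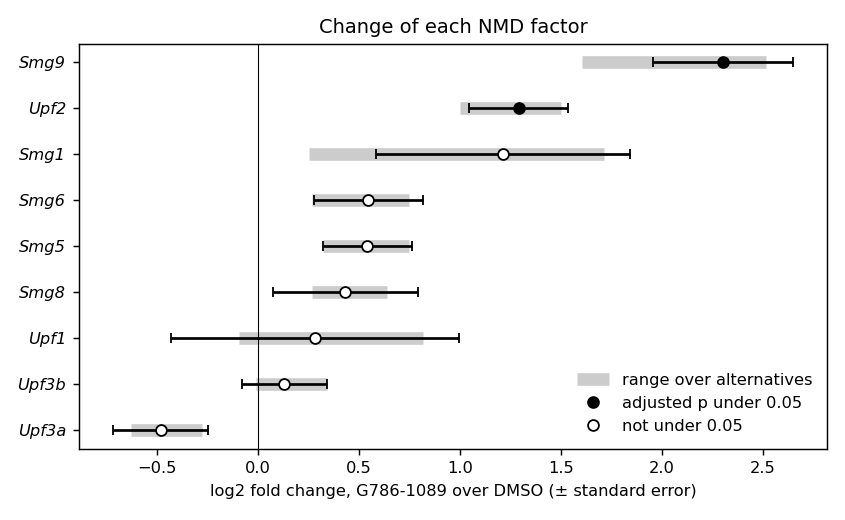
Log2 fold change of the 9 NMD factors, G786-1089 over DMSO, from edgeR (points, with the standard error as bars). Grey bands span the values under all alternative fits, including those that leave out a library. Filled points are Smg9 at 2.31 and Upf2 at 1.29, with an adjusted p under 0.05, and Upf3a is the gene left of 0 at -0.48.

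Smg9 encodes a regulatory subunit of the SMG1 kinase complex and showed the largest change of the 9. Its level was 10.9, 12.6 and 16.5 CPM in the G786-1089 libraries A, B and C and 3.01, 2.06 and 3.02 CPM in the DMSO libraries A, B and C. The lowest treated library was thus above the highest control library. Group means were 13.3 ± 2.84 and 2.70 ± 0.549 CPM (SD, n = 3 each), which is 4.94-fold. The log2 fold change was 2.31 with a standard error of 0.35 (edgeR adjusted p = 0.00734). Fits that left out 1 library gave 2.13 to 2.43, and Smg9 was called in all 6 of them (adjusted p from 0.0190 to 0.0314). The raw counts behind it were 815 to 1427 with G786-1089 and 134 to 183 with DMSO.

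Smg9 (ENSMUSG00000002210) spans bases 24399619 to 24422778 of chromosome 7 (GRCm38), and no exon of it overlaps another gene. Annotated transcripts of Smg9 include 4 with a retained intron, and counts per gene cannot tell these from the coding mRNA.

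Smg8 (ENSMUSG00000020495, chromosome 11, bases 87077732 to 87086774) encodes the partner of SMG9 in the complex. Its level was 7.84, 5.38 and 8.67 CPM with G786-1089 and 5.44, 6.28 and 4.49 CPM with DMSO, and the groups overlapped. A log2 fold change of 0.43 was found, with a standard error of 0.36 (edgeR adjusted p = 0.499). Smg8 and Smg9 can be compared within a library by FPKM, which is scaled by exon length. The ratio of Smg9 to Smg8 was 2.00, 3.37 and 2.72 with G786-1089 and 0.794, 0.471 and 0.965 with DMSO. Smg9 thus exceeded Smg8 in each treated library and was below it in each control library.

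Smg1 (ENSMUSG00000030655, chromosome 7, bases 118131308 to 118243670), the kinase itself, had few counts for a transcript of 15557 bases. Its level was 8.40, 9.47 and 2.95 CPM with G786-1089 and 4.75, 2.71 and 1.51 CPM with DMSO. Libraries A and B of G786-1089 were above all controls, but library C lay within the control range. At 1.21 on the log2 scale, the fold change had a standard error of 0.63 (edgeR adjusted p = 0.271), so that a difference was not detectable against the spread between libraries.

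Among the UPF genes, Upf2 rose. It encodes the adaptor between UPF1 and UPF3 proteins. Its level was 39.3, 27.0 and 30.4 CPM with G786-1089 and 10.9, 12.8 and 15.8 CPM with DMSO, with no overlap. Group means of 32.2 ± 6.33 and 13.2 ± 2.50 CPM (SD, n = 3 each) differed 2.45-fold. The log2 fold change was 1.29 with a standard error of 0.25 (edgeR adjusted p = 0.0168). The call depended on single libraries: the adjusted p was 0.0536 without G786-1089 A, 0.0621 without DMSO A and 0.0623 without DMSO B, while the log2 fold change stayed between 1.13 and 1.44 over the 6 fits. With the letters as a replicate block it was 1.29, with an edgeR adjusted p of 0.0635. Upf2 (ENSMUSG00000043241) spans bases 5951469 to 6056703 of chromosome 2 and shares no exon bases with another gene.

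Upf3a and Upf3b are paralogs that bind UPF2. UPF3B is the main activator of the pair, and UPF3A, whose protein UPF3B keeps at a low level in many cells, is the weaker one. Upf3a (ENSMUSG00000038398) spans bases 13785615 to 13799193 of chromosome 8, and Upf3b (ENSMUSG00000036572) bases 37091678 to 37110322 of the X chromosome. Upf3a was the only one of the 9 with a negative fold change. Its level was 28.9, 17.4 and 26.1 CPM with G786-1089 and 35.8, 35.8 and 29.5 CPM with DMSO, so that every treated library was below every control library. On the log2 scale the fold change was -0.48 with a standard error of 0.24 and missed the threshold (edgeR adjusted p = 0.244). Upf3b stood at 73.2 to 104.1 CPM with G786-1089 and at 67.9 to 104.6 CPM with DMSO. Its log2 fold change was 0.13 with a standard error of 0.21 (edgeR adjusted p = 0.752), and its sign turned without DMSO B (-0.01).

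Per exon length Upf3b exceeded Upf3a in every library. The FPKM ratio of Upf3b to Upf3a was 3.17, 3.69 and 3.38 with G786-1089 and 2.00, 1.66 and 3.11 with DMSO. The treated libraries were all above the controls, although DMSO C came close to them. The ratio of Upf2 to Upf3b was 0.171, 0.167 and 0.137 with G786-1089 and 0.0604, 0.0855 and 0.0685 with DMSO. Upf2 was thus the rarer transcript of the 2 in every library.

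Upf1 (ENSMUSG00000058301, chromosome 8, bases 70331525 to 70353278), the helicase at the centre of the pathway, had the fewest counts of the 9 in 5 of the 6 libraries. Its raw counts were 88, 105 and 183 with G786-1089 and 30, 74 and 105 with DMSO, and its CPM values of 1.05 to 2.11 and 0.493 to 1.93 overlapped. On the log2 scale the fold change was 0.28 with a standard error of 0.71 (edgeR adjusted p = 0.844), and its sign turned without G786-1089 C (-0.09) and without DMSO A (-0.09). The difference was within the spread between libraries. The study counted alignments on transcripts, in the mode of its counting function named Union, and then summed them per gene. Upf1 has 2 transcripts in the basic annotation, and the other 8 genes have 1 each. Whether alignments shared by the 2 transcripts of Upf1 were all counted in this mode was not tested, so its low level carries this limit. The same limit holds for genes outside the 9, markers included, that have more than 1 transcript in the basic annotation. Of its exon bases, 1.47% overlap Cers1 and Gdf1. The counts do not separate strands, and how alignments shared by overlapping genes were assigned was not tested. Gdf1 had 0 counts in all libraries, which therefore does not show that its RNA was absent. Cers1 was at 19.1 ± 5.07 CPM with G786-1089 and 8.78 ± 2.29 CPM with DMSO (SD, n = 3 each).

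Smg5 and Smg6 encode the factors that start decay of the mRNA. Smg5 (ENSMUSG00000001415) spans bases 88336260 to 88362338 of chromosome 3, and Smg6 (ENSMUSG00000038290) bases 74925823 to 75164448 of chromosome 11. Smg5, the adaptor, was at 52.9, 45.5 and 47.3 CPM with G786-1089 and at 23.9, 39.9 and 36.2 CPM with DMSO. The groups did not overlap, and DMSO A was the lowest control by a wide margin. Its log2 fold change was 0.54 with a standard error of 0.22, which did not pass after adjustment (edgeR adjusted p = 0.167). Smg6, the endonuclease, was at 11.7, 14.1 and 10.4 CPM with G786-1089 and at 8.76, 7.31 and 8.70 CPM with DMSO, again without overlap. Its log2 fold change was 0.55 with a standard error of 0.27 (edgeR adjusted p = 0.247). Srr, a gene whose exons overlap Smg6 (4.16% of the exon bases of Smg6, together with Gm12333), was at 15.2 ± 5.10 and 10.8 ± 3.19 CPM (SD, n = 3 each), and its log2 fold change was 0.49 (edgeR adjusted p = 0.462). Gm12333 had 63 counts in a single library and 0 in the others.

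**Figure D2:**
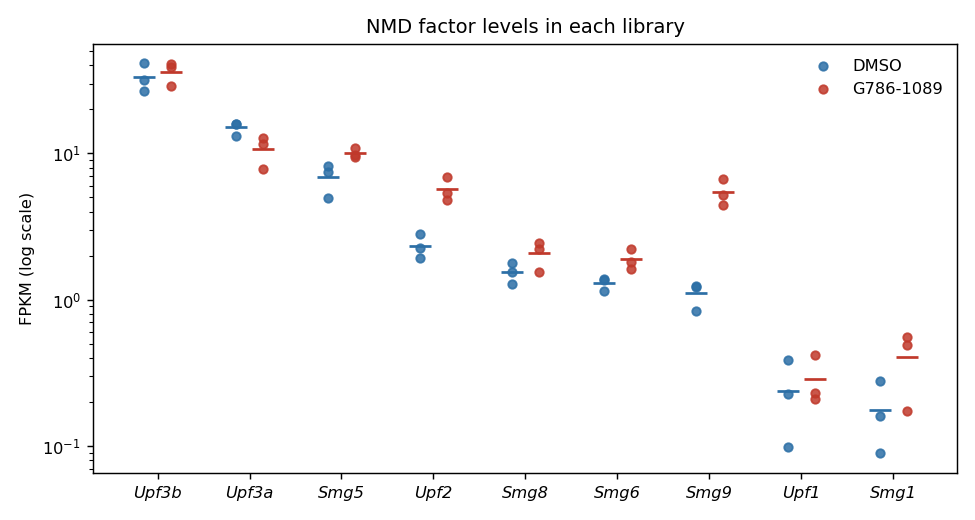
FPKM of the 9 NMD factors in each library on a log scale, with DMSO in blue and G786-1089 in red; points are libraries and horizontal bars the means of 3. Smg9 moves from 1.10 to 5.45 FPKM and Upf2 from 2.34 to 5.71 FPKM, without overlap between the groups.

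The plot of levels by library gives the order of the factors per exon length. With DMSO, Upf3b led at 33.2 ± 7.37 FPKM, followed by Upf3a at 15.1 ± 1.59, Smg5 at 6.89 ± 1.72 and Upf2 at 2.34 ± 0.448 FPKM (SD, n = 3). Each of these was clear of the next in all libraries. Smg8 at 1.54 ± 0.252, Smg6 at 1.30 ± 0.131 and Smg9 at 1.10 ± 0.227 FPKM overlapped from neighbour to neighbour. Upf1 at 0.236 ± 0.144 and Smg1 at 0.176 ± 0.0967 FPKM came last and overlapped as well. The gap between the top and the bottom of the order was therefore wider than any change with treatment. The place of Upf1 in this order is subject to the limit on its 2 transcripts given above.

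With G786-1089, Upf3b at 36.2 ± 6.44 FPKM again led, and Upf3a at 10.7 ± 2.61 now overlapped Smg5 at 9.998 ± 0.760 FPKM (SD, n = 3). Upf2 at 5.71 ± 1.10 and Smg9 at 5.45 ± 1.15 FPKM formed the next overlapping pair. Smg9 thus stood 5th in place of 7th, above Smg8 at 2.08 ± 0.476 and Smg6 at 1.89 ± 0.307 FPKM, which still overlapped. Smg1 at 0.409 ± 0.207 and Upf1 at 0.286 ± 0.114 FPKM remained at the bottom, with their order exchanged and their ranges overlapping.

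The annotation was searched for features that mark NMD substrates. Long 3′ UTRs, upstream start codons and an exon junction more than 50 bases past the stop codon can each expose an mRNA to the pathway. The main transcript of a gene is taken here as its longest coding transcript in the basic annotation. None of the 9 main transcripts has such a junction, against 0.439% of 11394 tested coding genes. Other transcripts were not examined for it, so these shares do not describe them. An ATG in the 5′ UTR was present in Upf2, Smg1, Smg5 and Smg9, against 52.5% of coding genes. The 3′ UTR ran from 221 bases in Smg8 and 400 in Smg9 to 4233 in Smg1, and 4 of the 9 exceeded the median of 1137 bases. The 3′ UTR of Smg9 was the second shortest of the 9, and that of Upf2, with 1261 bases, was near the median. Whether any of these features bears on the changes was not tested. Transcripts annotated as NMD substrates exist for Smg1, Smg5 and Smg6, 1 in each, and transcripts with a retained intron for 5 of the 9. Counts per gene do not show which of these transcripts was measured.

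Fold changes over all tested genes were higher in longer genes, and most NMD factors are long. The median log2 fold change went from -0.28 in the shortest of 10 length bins, with a median of 403.5 exon bases, to 0.33 in the longest with a median of 8280. Of the 9 factors, 6 have a main transcript above the median of coding genes. Relative to the median of its own bin, Smg9 was higher by 2.27 on the log2 scale and Upf2 by 0.99. Smg1 was higher by 0.88, whereas Smg5, Smg6 and Smg8 were higher by 0.24 to 0.33 and Upf1 and Upf3b by less than 0.1. Upf3a was at -0.44. In a fit with offsets for gene length the median of the 9 was 0.31 in place of 0.54, Smg9 was still called at 2.31 (edgeR adjusted p = 0.0083) and so was Upf2 at 1.03 (edgeR adjusted p = 0.0329).

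**Figure D3:**
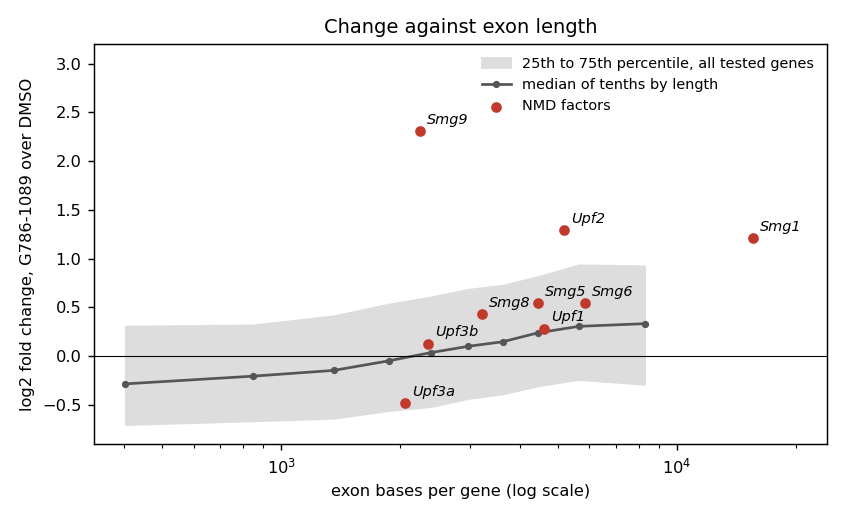
Log2 fold change of the 9 NMD factors (red) against exon bases per gene on a log axis, over the median (line) and the 25th to 75th percentile (grey) of all tested genes in 10 length bins. The medians run from -0.28 to 0.33, and Smg9 and Upf2 lie above the grey band. The band ends at 8280 bases, and Smg1, with 15557, lies to the right of its end. At 1.21, Smg1 is above the 75th percentile of its bin, 0.93.

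The genes around the 9 factors were taken as 6 lists of RNA decay and translation termination with 79 genes, of which 78 were tested. Of these, 6 rose and 5 fell (edgeR adjusted p under 0.05), a share near that of all tested genes in either direction. Each of these 11 calls was lost in at least 1 of the 6 fits that leave out a library, and 4 of them in all 6. With the replicate block, 2 genes were called higher and 1 lower, against 524 and 708 of all tested genes. With library size only, 11 were called higher and 0 lower, against 1630 and 796 of all tested genes. In that setting the median of all tested genes moved from 0.04 to 0.25. The values below describe these genes and carry no test of a list.

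In the list of 8 other NMD factors and related genes the log2 fold change had a median of 0.72, with 1 gene higher and 0 lower. An unadjusted p under 0.05 was reached by 5 genes, 4 with a positive fold change and 1, Ruvbl1, with a negative one, against 28.1% of all tested genes. Of these 4, Secisbp2 is a related gene rather than a core NMD factor (log2 fold change 0.81, edgeR unadjusted p = 0.0247). It is named after its value was seen. The gene that rose was Ruvbl2, an ATPase that acts on the SMG1 complex, from 160.8 ± 3.25 to 249.4 ± 40.0 CPM (SD, n = 3 each), which is 0.63 on the log2 scale (edgeR adjusted p = 0.0194). The call was lost without any one of the DMSO libraries. Ruvbl1, which encodes the partner ATPase, had a log2 fold change of -0.33 (edgeR adjusted p = 0.119), and the helicase gene Dhx34 one of 1.30 (edgeR adjusted p = 0.0534). Both missed the threshold and are named after their values were seen.

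Of the 12 exon junction complex genes, 1 rose and 2 fell, with a median of -0.35. The core helicase gene Eif4a3 fell from 812 ± 67.3 to 619 ± 56.7 CPM, and Rbm8a, which encodes the core subunit Y14, from 108 ± 6.91 to 78.1 ± 6.35 CPM (SD, n = 3 each). Their edgeR adjusted p-values were 0.0364 and 0.0417. Srrm1, a splicing coactivator that associates with the complex, rose from 67.9 ± 8.72 to 109 ± 12.2 CPM (edgeR adjusted p = 0.0251). Without correction for composition (library size only) Eif4a3 and Rbm8a were not called, and the median was -0.14 against 0.25 over all tested genes. The median of the list was -0.16 without G786-1089 B and without DMSO C.

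Among 12 genes of cap binding and translation termination, 0 rose and 2 fell, with a median of -0.21. With library size only neither was called, and the list median was 0.00 against 0.25 over all tested genes. Without G786-1089 A the list median was -0.05. Gspt1, the release factor eRF3a, fell by 0.93 on the log2 scale, from 27.2 ± 1.39 to 14.3 ± 2.32 CPM (edgeR adjusted p = 0.0288). Eif4e, the cap-binding protein, fell by 0.63, from 269 ± 27.3 to 174 ± 24.5 CPM (SD, n = 3 each, edgeR adjusted p = 0.0227).

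The 12 genes of decapping and 5′ to 3′ decay had a median of 0.42. It was 0.23 with offsets for gene length. No gene passed in edgeR, and 5 had an unadjusted p under 0.05, 4 with a positive fold change and 1, Ddx6, with a negative one (-0.94). DESeq2 called 4 genes higher (Dcp1a, Dcp1b, Dcp2 and Xrn1), as it did 12.9% of all genes it tested. On simulated data with 200 genes changed, 40.9% of its calls were false. That share depends on how many genes change, so it is not a rate for these 4 calls. Ddx6 and the 4 genes called by DESeq2 are named after their values were seen. Of 17 deadenylation genes, with a median of 0.35 that became 0.10 with length offsets and 0.18 without G786-1089 A, Btg2 was the single call, at 58.9 ± 3.30 CPM with G786-1089 and 38.5 ± 5.01 CPM with DMSO (edgeR adjusted p = 0.0429). Btg2, which recruits the deadenylases to mRNAs, was not called with length offsets or the replicate block. Of 17 tested genes of the exosome, the SKI complex and related factors, 3 rose and 1 fell. The median was 0.23 (0.11 without G786-1089 B). None of these genes was called with the replicate block. The catalytic subunit gene Exosc10 rose from 115 ± 10.9 to 185 ± 18.1 CPM (edgeR adjusted p = 0.0118). The subunit gene Exosc2 rose by 0.84 on the log2 scale (edgeR adjusted p = 0.0395). Dis3l2, a related exonuclease of uridylated RNAs and not a subunit of either complex, rose by 0.82 (edgeR adjusted p = 0.0479). Exosc4 fell by 0.35 on the log2 scale (edgeR adjusted p = 0.0338). With library size only its fold change was -0.14, against a median of 0.25 over all tested genes, and was not called (edgeR adjusted p = 0.289).

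**Figure D4:**
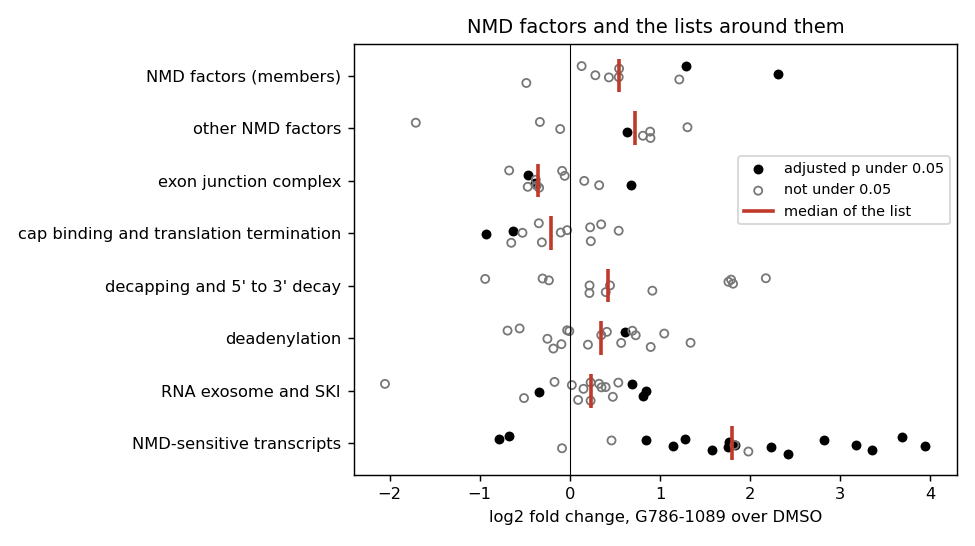
Log2 fold change, G786-1089 over DMSO, of the 9 NMD factors and of the genes in each of 7 lists; each point is a gene, filled where the edgeR adjusted p is under 0.05, and red bars are medians. The NMD-sensitive transcripts run from -0.79 to 3.94 with a median of 1.80 and overlap the 6 machinery lists, whose medians run from -0.35 to 0.72.

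Transcripts that are known to be sensitive to NMD were taken as another list. Their levels alone do not measure the activity of the 9 factors. Of 20 such transcripts, 14 rose and 2 fell. The log2 fold change had a median of 1.80, and 19 had an unadjusted p under 0.05, 17 of them with a positive fold change, against 28.1% of all tested genes. The list had been written with earlier results of these data known, so that it is not independent evidence of a direction. Ddit3 (ENSMUSG00000025408), which encodes the stress factor CHOP, rose from 19.2 ± 2.95 to 294 ± 34.9 CPM (SD, n = 3 each), which is 3.94 on the log2 scale with a standard error of 0.16 (edgeR adjusted p = 0.000102). Trib3, a pseudokinase gene, rose by 2.82 on the log2 scale, from 69.3 ± 12.8 to 489 ± 52.9 CPM (edgeR adjusted p = 0.000246). Both are also known targets of the stress factor ATF4, so that the list is not specific to decay. Eif4a2, which has an alternative exon that brings in a stop codon, rose from 63.1 ± 4.34 to 214 ± 20.6 CPM (edgeR adjusted p = 0.00036). The small nucleolar RNA host gene Snhg15 rose from 12.2 ± 3.24 to 109 ± 15.9 CPM (edgeR adjusted p = 0.000568). The 2 genes that fell, Chac1 and Upp1, named after their values were seen, had log2 fold changes of -0.79 and -0.68 (edgeR adjusted p = 0.0220 and 0.00939). Of the 16 calls, 13 were kept in all 6 fits that leave out a library. With the replicate block, 12 of the 20 were called higher and 0 lower.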

How the data were processed

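RNA of αTC1 cells was sequenced on the NovaSeq platform after Smart-seq2 and Nextera XT library preparation. The authors aligned reads to GRCm38, counted alignments irrespective of strand on Ensembl basic transcripts and summed them per gene, so the deposited counts are whole numbers without normalization. Their processing notes name STAR 2.7.9a, Picard 2.19.2, DESeq2 1.34.0 and R 4.1.3. The authors also deposited FPKM values; how these were made is not given in the sources used here, but they match the exon length of the basic transcripts within 1% for 98.6% of genes. FPKM values were used for levels between genes and markers.

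Counts were analysed with R 4.3.3 and edgeR 4.0.16: filterByExpr (minimum count 10, total 15), TMM scaling, quasi-likelihood F test, Benjamini-Hochberg adjustment over 15082 genes. Standard errors are the absolute log2 fold change over the square root of F. An exact permutation test of 3 libraries against 3 cannot go below p = 0.1. The columns are lettered and the labels numbered, with nothing to link the 2, so a column was assigned only to its treatment. The members, gene lists and tests were chosen with earlier results of these data known. Named are all 9 members, up to 4 genes per list with the smallest p among those called, and genes whose exons overlap a member; others are marked in the text as named after their values were seen. Positions, exons and UTRs come from GENCODE vM21, which matched 55141 genes by identifier, and promoters from RefSeq. Alternatives were RLE factors, library size only, DESeq2 1.42.0, 2 other count filters, the study's filter, length offsets, limma 3.58.1 on log2 FPKM values (pseudocount 1 or 0.1, mean FPKM of at least 1 or no minimum), thinned counts, a replicate block and each library left out. On simulated data with 200 genes changed 4-fold, edgeR recovered 51.9% of the 183 that were tested, with 6.86% of its calls false. DESeq2 gave 40.9% false calls there. The false shares depend on the number of genes changed, so they are not rates for the real data.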

Additional observations from a re-analysis of the deposited data

How the results depend on the processing

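Over 11 other fits and 6 fits that leave out 1 library, Smg9 was called in all 17, with a log2 fold change from 1.61 to 2.51. Upf2 was called in 10 of the 11, from 1.003 to 1.499, and in 3 of the 6. The other NMD factors were called in none; Upf1 and Smg1 fall below the mean FPKM minimum of 1 and were not in those 2 fits. Leaving out 1 library reversed Upf1 (-0.0923 without G786-1089 C and -0.0898 without DMSO A, range up to 0.8171) and Upf3b (-0.0098 without DMSO B, range up to 0.3055), and gave 1 to 2 called NMD factors, 15 to 21 of the list genes in place of 27, and 1253 to 1556 genes in all in place of 2230. Deviations from the group means were uncorrelated between columns of one letter (0.0027 to 0.025), so the data give no sign that the letters pair the columns, although the study describes replicates handled together; with them as a replicate block 1 NMD factor was called (Upf2 at an adjusted p of 0.0635), with 15 list genes and 1232 genes in all. DESeq2 called 42 list genes and 3667 genes, and the study's filter 17 list genes. With library size only, the median of all genes moved from 0.04 to 0.25 and the calls from 1053 higher and 1177 lower to 1630 and 796. The cause of these differences was not tested. Counting precision was lowest for Upf1, with 30 to 183 counts; with counts thinned to the lowest total no call of a NMD factor changed.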
